A study of Mus musculus with 6 samples.

Results

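The genes for the proteins of the cytosolic ribosome were examined in cultured microglia with and without deletion of Nr1d1, the gene for the nuclear receptor REV-ERBα. They were chosen by name: protein-coding genes whose symbol starts with Rpl or Rps and a digit, or with Rplp, together with Rpsa, and without the Rps6k kinases. Of 55487 genes in the count files, 92 met this rule, 57 of the large subunit and 35 of the small subunit. One of them, Rps19bp1, encodes a protein that binds Rps19 and is no ribosomal protein itself. Symbols ending in -ps with a number are listed as protein coding although they are named as pseudogenes.

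The 6 libraries came from 6 cultures of primary cortical microglia, of pups aged 1 to 3 days from the line CAG::CreERT2; Nr1d1 fl/fl. The 3 Cre+ cultures carried the CreERT2 transgene, and the 3 Cre- cultures did not. In this line the CAG promoter, which is active in nearly every cell type, drives a Cre recombinase that enters the nucleus when 4-hydroxytamoxifen (4-OHT) is present. Both groups carried the floxed Nr1d1 alleles and both received 1.5 μM 4-OHT for 2 days, so that they differed in Cre. The labels give this time, and the culture methods of the study give a shorter one for cells of this line. Cre- cultures are the control and Cre+ cultures the REV-ERBα knockout (KO), and the sequence between the loxP sites holds exons 3 to 5 of Nr1d1. The labels do not name the pup behind each culture, so that the p-values measure the spread between these cultures, which may in part be technical.

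A ribosome joins a large subunit, where peptide bonds form, to a small subunit, where the mRNA is read, and each needs nearly all its proteins in equal number. Their genes are spread over the genome and are transcribed from TATA-poor promoters, and many of their mRNAs start with a cytidine and a run of pyrimidines, the terminal oligopyrimidine (TOP) tract, through which the kinase mTORC1 and the RNA-binding protein LARP1 set how much of each mRNA is translated. RNA-seq measures the amount of these mRNAs and not their translation. It also cannot tell apart fewer cells of a type and less RNA per cell.

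Library totals ran from 87545868 to 110909129 counts on genes. Nr1d1 was at 2.35, 1.20 and 1.64 CPM (counts relative to the library total, scaled with the trimmed mean of M values, TMM) in Cre- and at 1.00, 0.945 and 1.08 CPM in Cre+ replicates 1, 2 and 3. Its gene-level count was lower in each Cre+ than in each Cre- culture but did not pass the test (log2 fold change -0.77, SE 0.25, adjusted p = 0.0945, edgeR). The 12 microglia markers summed to 7536 to 7815 CPM in Cre-, compared with 7545 to 7840 CPM in Cre+ cultures, led by Cd68, with 1 of 11 tested, Itgam, past the threshold (0.18, adjusted p = 0.0463), a call lost without any 1 of the 6 libraries, whereas the homeostatic markers P2ry12 (means of 0.611 and 0.722 CPM) and Tmem119 (2.95 and 2.42 CPM) were low. Summed markers of astrocytes (12.9 to 14.1 against 11.3 to 15.1 CPM), neurons (3.00 to 3.72 against 2.40 to 2.57 CPM) and fibroblasts and mural cells (1.85 to 2.83 against 0.972 to 1.23 CPM) were low, with no marker at 0 in all libraries. Markers of the oligodendrocyte lineage summed to 83.8 to 93.1 against 81.0 to 85.8 CPM, and those of endothelium to 20.9 to 22.9 against 24.3 to 27.9 CPM. Of the endothelial markers, Flt1 passed (0.33, adjusted p = 0.0245, and 0.0529 to 0.115 without any 1 library except Cre+ replicate 1). Their part in the results on ribosomal protein genes was not tested.

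The promoter stretches of the 3 ribosomal protein genes that passed the test, and of 2 that did not, are shown so that the sequence features counted below can be seen. Each runs from 60 bases before to 30 bases after the RefSeq start of GRCm38.p6, on the strand of the gene. Capitals mark a C followed by at least 6 pyrimidines (C or T), or the letters CCGGAAG on either strand, which are the core bound by GABP and other ETS factors. A pyrimidine run on the gene strand can overlap the reverse of these letters. They come from chr16:10170168-10170257 (+), chrX:37085193-37085282 (-), chr17:24720003-24720092 (+), chr9:64173327-64173416 (+) and chr4:86857338-86857427 (-), in this order:
Rpl39l: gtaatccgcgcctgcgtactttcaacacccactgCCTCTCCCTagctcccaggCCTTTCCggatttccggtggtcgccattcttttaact
Rpl39: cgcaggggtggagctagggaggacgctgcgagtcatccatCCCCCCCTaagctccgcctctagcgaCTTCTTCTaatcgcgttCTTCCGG
Rps2: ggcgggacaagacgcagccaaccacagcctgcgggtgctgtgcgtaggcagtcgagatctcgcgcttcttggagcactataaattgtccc
Rpl4: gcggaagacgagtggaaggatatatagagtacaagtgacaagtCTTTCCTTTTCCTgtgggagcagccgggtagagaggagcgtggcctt
Rps6: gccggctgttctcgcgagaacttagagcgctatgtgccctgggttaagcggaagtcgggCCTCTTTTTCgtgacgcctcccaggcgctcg

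Of the 92 genes, 66 had a promoter in the RefSeq table. From 50 bases before to 50 bases after the start, on the gene strand, 55 of them (83.3%) held a C followed by at least 6 pyrimidines, against 40.8% of the 27025 promoters of all genes. The ETS letters CCGGAAG stood in 25 of the 66 windows of 300 bases on either strand (37.9%), against 9.12% of all. The letters AAGATGGC, the core bound by YY1, stood in 5 windows (7.58%, against 2.88%), and TATAAA in the 50 bases before the start in 1 (1.52%, against 2.88%). In Rps6 a pyrimidine run lies right at the annotated start. How many of the other genes have a run at that position was not counted. In Rps2 no run falls in the stretch shown, and the RefSeq start used lies inside the Ensembl gene, which begins at 24718116. These matches describe letters and not factor binding, which was not measured here.

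As a group, the ribosomal protein mRNAs were at about the same level in Cre- and Cre+ microglia. Of the 92 genes, 86 were above 1 CPM in at least 4 libraries and could be tested, 52 of the large and 34 of the small subunit. Their median log2 fold change (Cre+ over Cre-) was -0.004, beside 0.002 for all 11429 genes tested, with 41 above 0 and 45 below 0. The quartiles were -0.046 and 0.031, beside -0.113 and 0.102 for all genes. A log2 fold change above 0.1 in size was found for 15 of the 86 (17.4%), whereas 52.4% of all genes tested had one. Of the 353 other genes of similar GC content, length and level, described further on, 22.7% had one. The genes are highly expressed, with a median of 287 CPM against 13.9 CPM for all genes, and the median SE of their log2 fold changes was 0.0469 against 0.104.

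By edgeR's quasi-likelihood test with adjustment over all genes tested, 3 of the 86 genes passed a threshold of 0.05 (3.49%), next to 5.07% of all genes. Rpl39l and Rps2 were lower in Cre+ (2 genes, beside 2.56% of all genes) and Rpl4 was higher (1 gene, beside 2.50% of all genes). At an unadjusted p under 0.05 there were 12 of 86 (14.0%), next to 19.1% of all genes. The 3 Cre+ values lay wholly above the 3 Cre- values for 4 of the 86 genes and wholly below for 11, in all 17.4%, and such separation was seen for 24.0% of all genes. Without Cre+ replicate 3, 1 gene (Rpl39l) passed.

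Rpl39l encodes a paralog of Rpl39, a small protein of the large subunit at the exit tunnel for the growing chain, and is known for its expression in the male germ line. The gene (ENSMUSG00000039209) lies at chr16:10170226-10174911 (GRCm38, plus strand). It was counted 340, 438 and 482 times in Cre- and 191, 165 and 191 times in Cre+ replicates 1, 2 and 3. This equals 3.91, 4.74 and 5.39 CPM in Cre- (4.68 ± 0.741, SD, n = 3) and 1.74, 1.77 and 1.89 CPM in Cre+ (1.80 ± 0.0805, SD, n = 3), so that the groups were far apart. Rpl39l fell by 1.38 on the log2 scale (SE 0.176, adjusted p = 0.000245), to 0.385 of the control level. It passed in each of the 18 alternative fits that included it, with log2 fold changes between -1.49 and -1.27 and adjusted p-values up to 0.00232. No other gene of the annotation overlaps it. No other ribosomal protein gene matched it at 95% identity over at least 100 bases and 50% of the shorter transcript. Among other transcripts, none had it as the best-scoring match at this mark.

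Rpl39 itself did not pass. It was at 128, 122 and 132 CPM in Cre-, compared with 125, 134 and 113 CPM in Cre+ cultures. The groups overlapped, with a log2 fold change of -0.04 (SE 0.060, adjusted p = 0.811). Per kilobase of transcript, Rpl39l was at 8.51 CPM in Cre-, compared with 3.28 CPM in Cre+, far below Rpl39 at 205 CPM over all cultures.

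Rps2 encodes a protein of the small subunit near the mRNA entry channel. The gene (ENSMUSG00000044533) lies at chr17:24718116-24721929 (plus strand). It was at 580, 615 and 652 CPM in Cre- (615 ± 36.0, SD, n = 3) and at 519, 550 and 477 CPM in Cre+ cultures (515 ± 36.9, SD, n = 3), and the groups did not overlap. It fell by 0.26 on the log2 scale (SE 0.055, adjusted p = 0.0127), to 0.838 of the control level. The call was lost without Cre- replicate 3 (adjusted p = 0.0627) and without Cre+ replicate 3 (adjusted p = 0.0638), with log2 fold changes of -0.22 and -0.20. The library kit does not mark strand, and the antisense gene Snhg9, with 1347 counts against 321668 for Rps2, overlaps it. The 20 copies of Rps2 elsewhere in the genome held 4.08% of the counts on Rps2 and its copies.

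Rpl4 encodes a large subunit protein with a long loop that lines the exit tunnel. The gene (ENSMUSG00000032399) lies at chr9:64173375-64178666 (plus strand). It was at 1079, 1067 and 1106 CPM in Cre- (1084 ± 20.2, SD, n = 3) and at 1187, 1226 and 1230 CPM in Cre+ cultures (1214 ± 23.4, SD, n = 3), again without overlap. Rpl4 rose by 0.16 on the log2 scale (SE 0.037, adjusted p = 0.0177), 1.12 times the control level. The call was lost without Cre- replicate 1 (adjusted p = 0.0606), Cre- replicate 2 (0.0846), Cre+ replicate 2 (0.0596) or Cre+ replicate 3 (0.0630), at log2 fold changes of 0.15 to 0.16.

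**Figure D1:**
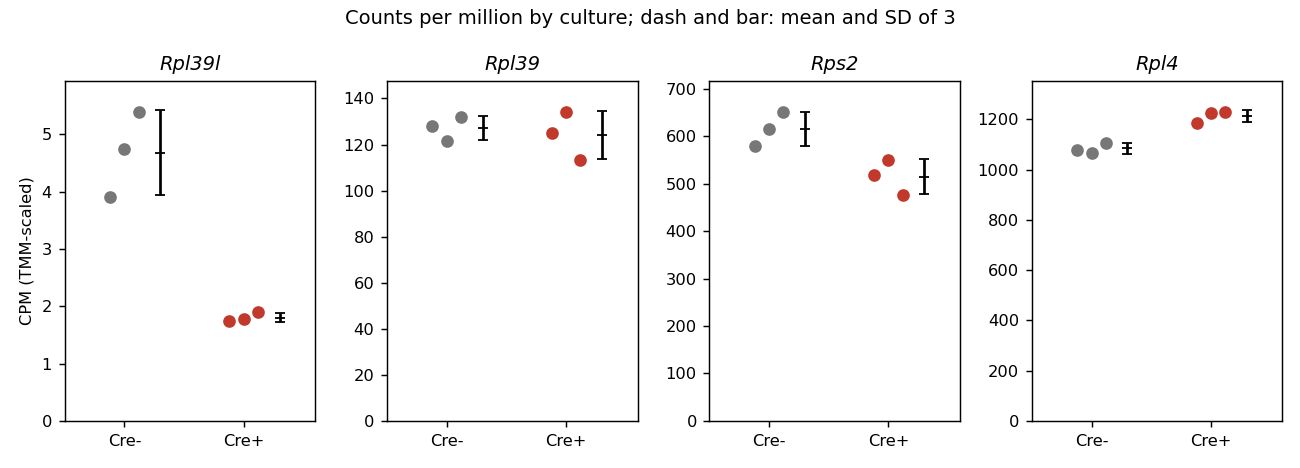
CPM (TMM-scaled, axes from 0) of Rpl39l, its paralog Rpl39, Rps2 and Rpl4 in 3 Cre- and 3 Cre+ cultures. Points are cultures, and the dash and bar are the mean and SD of 3. Rpl39l averages 4.68 CPM in Cre-, compared with 1.80 CPM in Cre+, whereas the values of Rpl39 overlap.

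None of the other genes passed. The 5 highest log2 fold changes were those of Rpl4 and of Rpl22l1, the paralog of Rpl22 (0.22, SE 0.089, adjusted p = 0.179), Rpl35 (0.15, SE 0.060, adjusted p = 0.191), Rpl7l1, a factor related to Rpl7 (0.11, SE 0.048, adjusted p = 0.236), and Rps6, the small subunit protein phosphorylated by S6 kinases (0.10, SE 0.040, adjusted p = 0.161). Rpl22l1 was at 20.0, 19.3 and 24.3 CPM in Cre-, compared with 25.5, 24.8 and 24.0 CPM in Cre+, so that 1 Cre- culture lay among the Cre+ cultures. Rps6 was at 491, 506 and 518 CPM in Cre-, compared with 542, 543 and 545 CPM in Cre+, without overlap. Of these, Rpl22l1 (0.33, adjusted p = 0.0471) and Rpl35 (0.22, adjusted p = 0.0393) passed when Cre- replicate 3 was left out.

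At the other end, after Rpl39l and Rps2, stood Rps19bp1 (-0.15, SE 0.096, adjusted p = 0.433), Rps12-ps3 (-0.14, SE 0.112, adjusted p = 0.557) and Rps12 (-0.12, SE 0.052, adjusted p = 0.216), none of which passed. Rps12 was at 227, 209 and 211 CPM in Cre-, compared with 204, 206 and 185 CPM in Cre+ cultures, with the highest Cre+ value just below the lowest Cre- value. Rps12 and Rps12-ps3 share a stretch of 400 bases at 100% identity, so that their counts cannot be assigned to either with certainty.

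**Figure D2:**
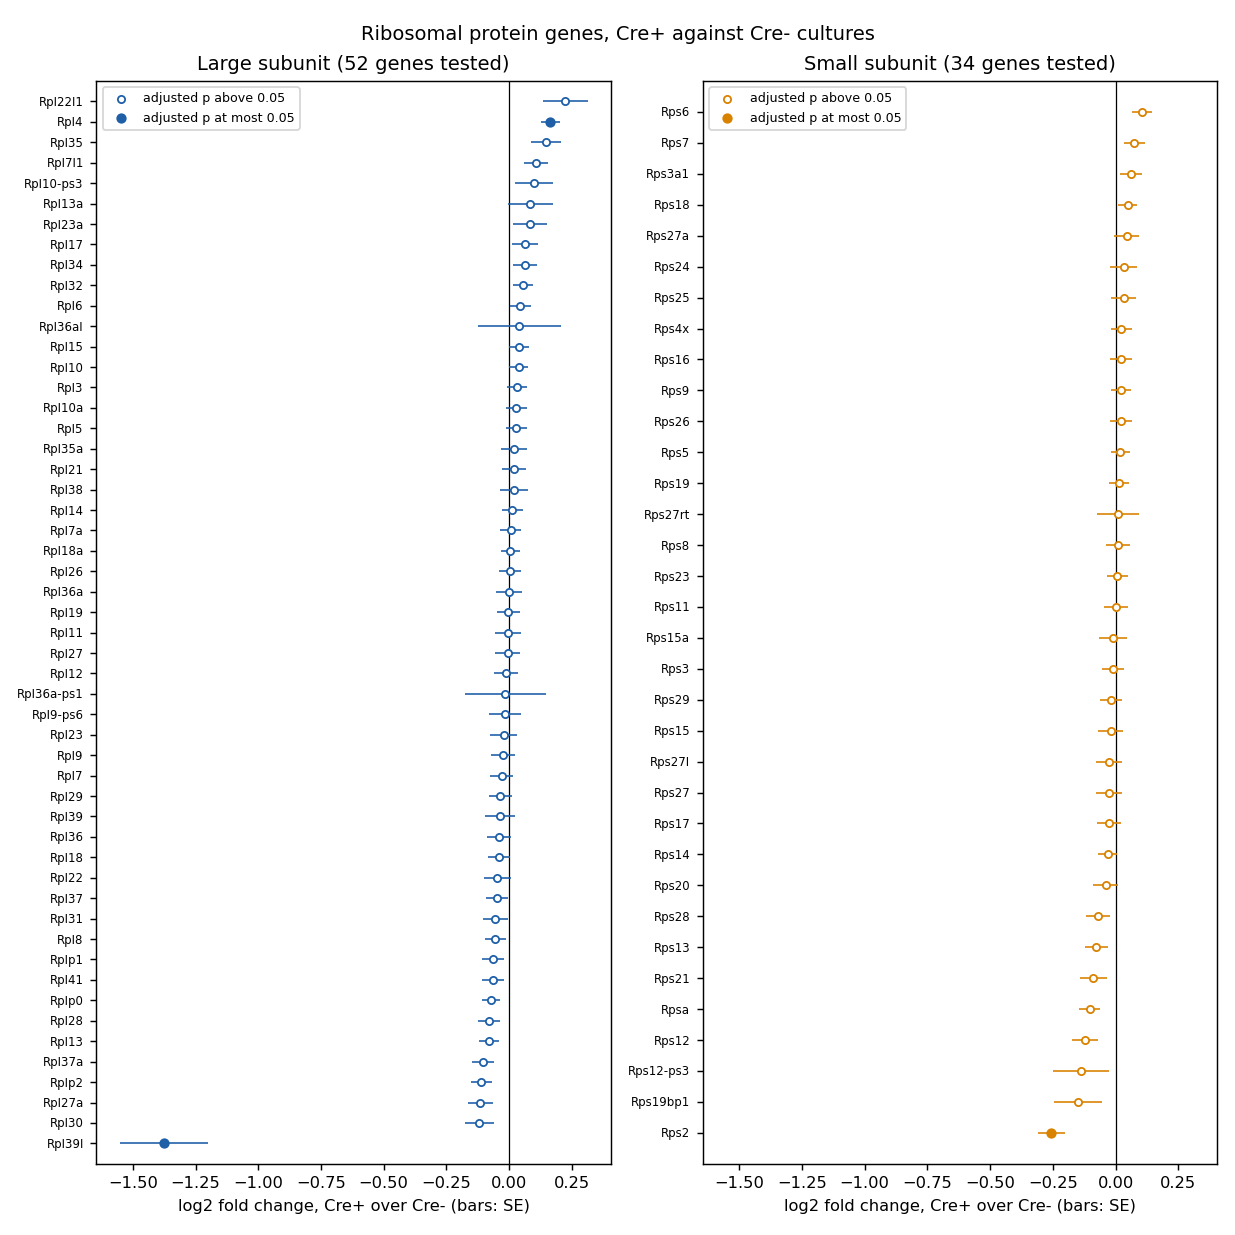
log2 fold change (Cre+ over Cre-, horizontal axis, bars show the SE) of the 52 large subunit and 34 small subunit genes tested, ordered within each panel. Filled points pass an adjusted p of 0.05 by edgeR. Apart from Rpl39l at -1.38, the points lie between -0.26 and 0.22.

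The P stalk and Rpsa were taken as a group of their own, chosen like the other lists with earlier results of these data known. Rplp0, Rplp1 and Rplp2 form the stalk of the large subunit that recruits translation factors, and Rpsa, a small subunit protein, is also known as the laminin receptor. None of the 4 passed by edgeR, DESeq2 or limma, with 2 at an unadjusted p under 0.05 by edgeR, where 19.1% of all genes had one. Rplp0 was at 1184, 1166 and 1179 CPM in Cre-, compared with 1143, 1122 and 1092 CPM in Cre+ cultures (log2 fold change -0.07, adjusted p = 0.308). Rplp2 was at 567, 535 and 564 against 509, 527 and 507 CPM (-0.11, adjusted p = 0.149). Rpsa was at 689, 673 and 681 against 655, 651 and 597 CPM (-0.10, adjusted p = 0.202). For these 3 genes the Cre+ values lay below the Cre- values, as for 1332 of all 11429 genes tested, whereas Rplp1 overlapped, at 756, 709 and 742 against 714, 735 and 663 CPM (-0.06, adjusted p = 0.494). With the trend with GC content and length removed, the log2 fold changes were -0.06 for Rplp0, 0.02 for Rplp1, -0.06 for Rplp2 and -0.05 for Rpsa.

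Most paralogs and tissue-restricted relatives were far less abundant than the standard genes. Rpl10l, known from the testis, had no count in any library, and Rpl3l, the striated muscle relative of Rpl3, was at 0.115 to 0.473 CPM and was not tested. Rpl36al was at 2.87 to 3.64 CPM, and its log2 fold change was 0.04 (adjusted p = 0.937). Its copies held 67.5% of the counts on gene and copies, and the read-through gene Gm49383 overlaps it. Its low value can therefore also reflect how reads were counted. Rps27l, a relative of Rps27 induced by p53, was at 108 to 120 CPM with overlapping groups (-0.03, adjusted p = 0.849), and the retrogene Rps27rt at 25.5 to 30.9 CPM (0.01, adjusted p = 0.972). Rps4l is annotated as a transcribed processed pseudogene and is not among the 92 genes. It was at 96.9, 94.4 and 99.2 CPM in Cre-, compared with 83.8, 87.7 and 78.8 CPM in Cre+ cultures and fell by 0.22 on the log2 scale (SE 0.05, adjusted p = 0.0313). The call was lost without any 1 library except Cre+ replicate 2 (adjusted p = 0.0542 to 0.132), and with the trend with GC content and length removed the log2 fold change was -0.09 (adjusted p = 0.357). Together with Rpl39l it made 2 of the 8 genes tested on this list, which also holds Rps19bp1, that passed, both lower, where 5.07% of all genes passed and 2.56% were lower.

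Large and small subunit genes did not separate. The median log2 fold change was -0.004 for the 52 large subunit genes and -0.004 for the 34 small subunit genes, with 24 of 52 and 17 of 34 above 0. The large subunit held 2 calls (3.85%) and the small subunit 1 (2.94%), both below the 5.07% of all genes. Once the trend with GC content and length was removed in each library, the 2 medians differed by 0.028, with the large subunit higher. Without the symbols ending in -ps, the paralogs and Rps19bp1, which left 75 genes, the median was -0.003 and 2 genes (Rps2 and Rpl4) passed. This last grouping was made after the values were seen.

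Summed over the 92 genes, ribosomal protein mRNAs took 3.29%, 3.21% and 3.31% of all counts in Cre- (3.27% ± 0.0556, SD, n = 3) and 3.28%, 3.38% and 3.16% in Cre+ replicates 1, 2 and 3 (3.27% ± 0.109, SD, n = 3). The lowest and the highest share were both in Cre+ cultures, so that the Cre- values fell inside the Cre+ range. The large subunit took 1.91% ± 0.0325 in Cre- and 1.91% ± 0.0576 in Cre+ (SD, n = 3), and the small subunit 1.36% ± 0.0231 and 1.36% ± 0.0518 (SD, n = 3). The ratio of large to small subunit counts was 1.41, 1.40 and 1.40 in Cre- and 1.39, 1.40 and 1.42 in Cre+ cultures, again with the Cre- values inside the Cre+ range.

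**Figure D3:**
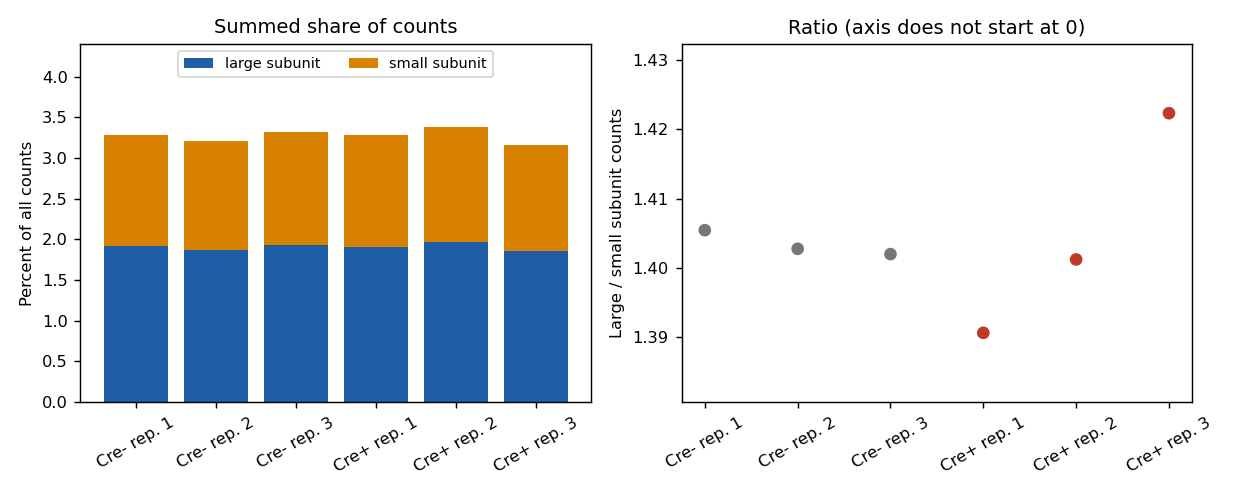
Left, percent of all counts on large and small subunit genes in each library, stacked. Right, ratio of large to small subunit counts on an axis that does not start at 0. The summed share lies between 3.16% and 3.38%, and both extremes are Cre+ cultures (replicates 3 and 2).

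Between cultures of the same group, the ribosomal protein genes moved as a block. Each gene was compared with its own mean over the 6 libraries on the log2(CPM + 0.5) scale. In Cre- replicate 3, 74 of the 86 genes were above their mean, and in Cre+ replicate 2, 72 were, whereas in Cre- replicate 2 and Cre+ replicate 3, 67 and 72 were below it. The median deviations were -0.01, -0.04 and 0.05 in Cre- and 0.00, 0.04 and -0.07 in Cre+ replicates 1, 2 and 3. Those of all genes tested stayed within 0.01 of 0, near which the TMM scaling places them. The 353 other genes of similar GC content, length and level, described further on, shifted too. Their medians were -0.03, -0.01 and 0.04 in Cre- and 0.00, 0.02 and -0.01 in Cre+ replicates 1, 2 and 3. They were up in Cre- replicate 3 and Cre+ replicate 2 like the ribosomal protein genes. In Cre- replicate 2 and Cre+ replicate 3 they moved down less than the ribosomal protein genes, and in Cre- replicate 1 more. Large and small subunit genes shifted alike, by 0.05 and 0.04 in Cre- replicate 3 and by -0.07 and -0.07 in Cre+ replicate 3. Once the trend with GC content and transcript length was removed, the medians narrowed to between -0.0147 and 0.0146.

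**Figure D4:**
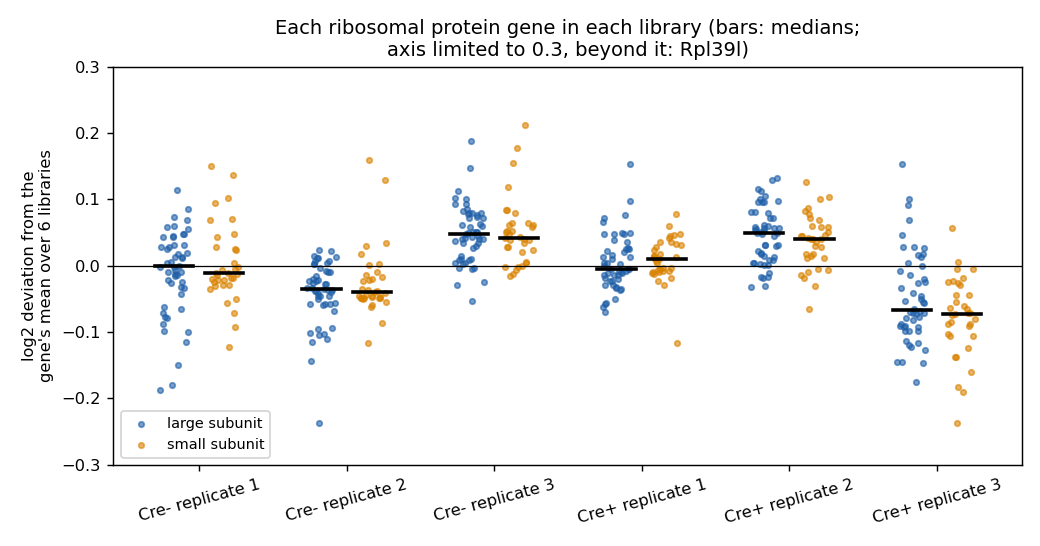
log2 deviation of each ribosomal protein gene tested from its mean over the 6 libraries (vertical axis), by library. Points are genes of the large and small subunit, and black bars are medians. The vertical axis ends at 0.3 in either direction, which leaves out values of Rpl39l. Cre- replicate 3 and Cre+ replicate 2 sit above 0, Cre- replicate 2 and Cre+ replicate 3 below.

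GC content and length were considered because ribosomal protein transcripts are short (median 713 bases over the 92 genes, 1 coding transcript per gene) with a median GC content of 51.3%, against 2561 bases and 50.2% for all genes tested. Among other genes, those below 48% GC had a median log2 fold change of 0.047 (n = 4288) and those at or above 52% of -0.052 (n = 4523). The ribosomal protein genes had -0.015 (n = 19) and -0.019 (n = 38) in the same classes, and 0.023 (n = 29) from 48% to 52%, where other genes had 0.019. By length, the medians were -0.027 below 600 bases (n = 33), 0.007 from 600 to 1000 bases (n = 34) and 0.012 above (n = 19). With the trend removed, Rpl39l was at -1.40, Rps2 at -0.19 and Rpl4 at 0.14, and Rpl35 passed as a 4th gene (0.22, adjusted p = 0.0300).

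The 353 other genes between the 10th and 90th percentile of the ribosomal protein genes in GC content (46.0% to 56.6%) and length (455 to 1297 bases) and above their 10th percentile in level (40.0 CPM) gave a description of similar transcripts. Their median log2 fold change was 0.009 with quartiles of -0.053 and 0.057, and 19 of them passed (5.38%). A log2 fold change above 0.1 in size was found for 22.7% of them, beside 17.4% of the ribosomal protein genes. The groups did not overlap for 30.6% of them, beside 17.4%. Their within-group SD was 0.0508 on the log2 scale in the median, beside 0.0570 for the ribosomal protein genes.

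**Figure D5:**
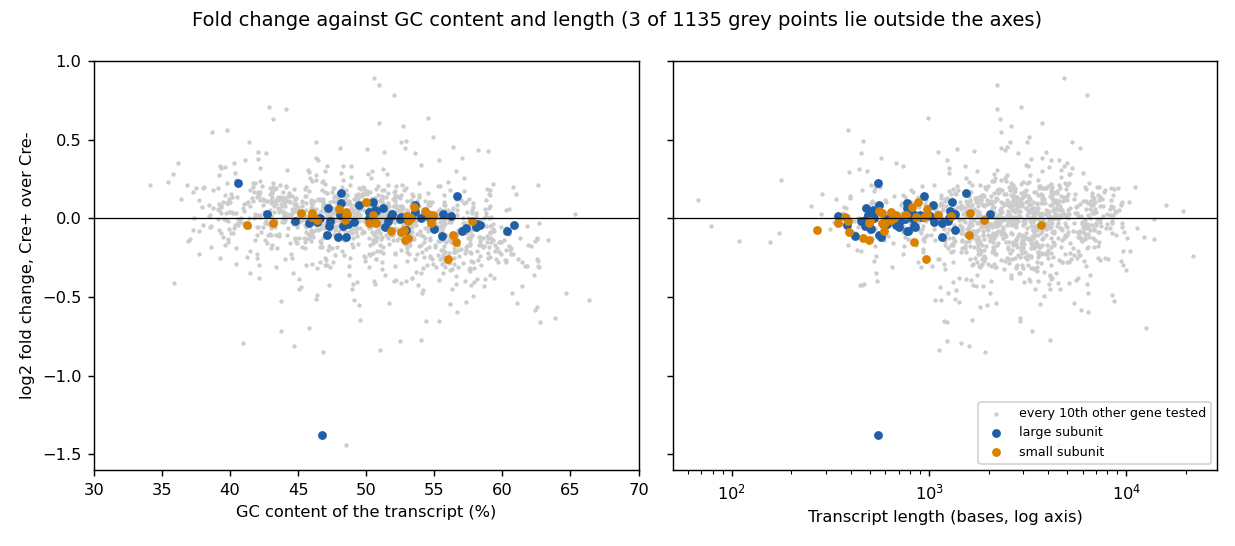
log2 fold change (Cre+ over Cre-) against the GC content (left) and the length (right, log axis) of 1 transcript per gene. Grey points are every 10th other gene tested, and 3 of 1135 lie outside the axes. Apart from Rpl39l, the ribosomal protein genes lie between -0.26 and 0.22 over their whole range of GC content, while other genes slope down from a median of 0.047 below 48% to -0.052 at or above 52%.

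The mRNA levels differed widely between members. Per kilobase of transcript, the median was 354 CPM for the tested large subunit genes (5.89 to 1988 CPM) and 449 CPM for those of the small subunit (19.3 to 1817 CPM). The lowest values were those of the paralog Rpl39l and of Rps12-ps3, which is named as a pseudogene. Low values can also reflect reads counted on copies. Rpl13a was at 14.2 CPM per kilobase, and its copies held 77.7% of the counts on gene and copies. The most abundant large subunit mRNAs per length were Rpl32 at 1988, Rpl13 at 1513, Rplp1 at 1442, Rpl41 at 1426 and Rplp2 at 1271 CPM per kilobase. In the small subunit they were Rps14 at 1817, Rps29 at 1497, Rps18 at 1316, Rps9 at 1299 and Rps28 at 1075 CPM per kilobase. None of these 10 passed the test by edgeR, DESeq2 or limma, and their log2 fold changes ran from -0.11 (Rplp2) to 0.05 (Rpl32 and Rps18). At an unadjusted p under 0.05 by edgeR there was 1 of them, Rplp2, where 19.1% of all genes had one. In every library, 74 of the 92 genes were above 100 CPM.

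Reads of this family can be split between a gene and its processed copies. Each copy (at least 95% identity over at least 100 bases and 50% of the shorter transcript) was assigned to its best-scoring gene only. So assigned, 82 of the 92 genes had at least 1 copy elsewhere, 622 in all, 596 of them processed pseudogenes. Rps12 and Rps27 were given none. Rps12-ps3 and Rps27rt, identical to them over 400 and 341 bases, were given 21 and 4. The copies held 10.1% ± 0.277 of the counts on genes and copies in Cre- and 10.2% ± 0.301 in Cre+ cultures (SD, n = 3), with overlapping groups. Adding the copies to their genes left 3 calls among 88 genes tested. Rps10 and Rpl24, which are standard ribosomal proteins, were too low to test, with 533 and 557 counts over all 6 libraries, while their copies held 98.0% and 94.7% of the counts on gene and copies. Each of them is overlapped on its strand by a read-through gene with 0 counts (RPS10-NUDT3 and Gm28037), as are Rpl13a and Rpl36al (Gm45713 and Gm49383). Rpl13 is overlapped in the same way (Gm20388, 0 counts) and had 673961 counts. How reads on several genes or with several matches were counted is not given in the sources used here. Rpl41 has a copy, Gm10076, with 195090 counts against 414375 on Rpl41. Besides Rps12 and Rps12-ps3, the pairs Rpl10 and Rpl10-ps3, Rpl9 and Rpl9-ps6, Rpl36a and Rpl36a-ps1, and Rps27 and Rps27rt were at least 98.4% identical, so that each gene of a pair is uncertain on its own.

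The machinery around the ribosome was described from lists chosen beside the ribosomal protein genes. They were chosen with earlier results of these data known, so that their shares of calls are descriptions and no independent evidence. Of 31 translation factors and other TOP mRNAs, 4 passed (12.9%) and all 4 rose, where 5.07% of all genes passed and 2.50% were higher, with 21 of 31 above 0 and a median log2 fold change of 0.04. They were Hnrnpa1, an RNA-binding protein (0.31, SE 0.05, adjusted p = 0.00232), Eif2a, an alternative initiation factor (0.27, SE 0.06, adjusted p = 0.0238), the helicase Eif4a1 of the cap-binding complex (0.22, SE 0.06, adjusted p = 0.0427) and Eif3a, a scaffold of initiation factor 3 (0.20, SE 0.05, adjusted p = 0.0345). Hnrnpa1 was at 55.6, 57.2 and 58.1 CPM in Cre-, compared with 70.1, 70.7 and 70.8 CPM in Cre+ cultures. Eif4a1 was at 622, 705 and 746 CPM against 753, 829 and 836 CPM, where the lowest Cre+ value lay just above the highest Cre- value. Hnrnpa1 passed without any 1 library. The other calls were each lost without some: Eif2a without any 1 but Cre+ replicate 3 (up to an adjusted p of 0.0929), Eif3a without replicate 2 or 3 of either group (up to 0.136), and Eif4a1 without Cre- replicate 1 or 2 or Cre+ replicate 2 or 3 (up to 0.156). With the trend with GC content and length removed, Hnrnpa1 passed and the adjusted p-values of Eif2a, Eif4a1 and Eif3a were 0.0662, 0.0717 and 0.0812.

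Of 50 genes for ribosome biogenesis, 1 passed (2.00%, beside 5.07% of all genes): Nop56, a core protein of the box C/D particles that methylate rRNA, which rose from 84.3, 88.6 and 85.8 CPM to 98.3, 105 and 102 CPM (0.24, SE 0.05, adjusted p = 0.0124). Nop56 did not pass without Cre- replicate 1 (adjusted p = 0.0504) or Cre+ replicate 2 (0.0544). DESeq2 called 3 of the 50 and limma 1, and the shares of all genes that these 2 tools called are not given here. An unadjusted p under 0.05 by edgeR was found for 10 of the 50, where 19.1% of all genes had one. The log2 fold changes of 38 of the 50 were above 0, with a median of 0.09 beside 0.002 for all genes tested. Of 77 mitochondrial ribosomal protein genes tested, none passed by edgeR or limma and 1 by DESeq2. An unadjusted p under 0.05 by edgeR was found for 9 of them, beside 19.1% of all genes, and 40 had a log2 fold change above 0. Of 26 regulators of ribosomal protein genes and TOP mRNAs tested, 3 passed by edgeR (11.5%, beside 5.07% of all genes by edgeR). Limma called 3 and DESeq2 5, again without a share over all genes for these tools. Myc, a transcription factor for many of these genes, rose from 21.4, 19.8 and 22.5 CPM to 25.2, 26.9 and 26.8 CPM (0.31, SE 0.08, adjusted p = 0.0309). Mdm2, whose protein is bound by free Rpl5 and Rpl11, rose by 0.20 on the log2 scale (SE 0.05, adjusted p = 0.0394). Eif4ebp1, the mTORC1 target that holds back cap-dependent initiation, fell by 0.22 on the log2 scale (SE 0.06, adjusted p = 0.0350). All 3 calls depended on single libraries. Myc did not pass without Cre- replicate 1 or 2 or Cre+ replicate 2 or 3 (adjusted p up to 0.113). Mdm2 did not pass without replicate 1 or 3 of either group (up to 0.155), and Eif4ebp1 without any 1 of the 6 (0.0504 to 0.135). Over all 19 alternative fits, the adjusted p of Eif4ebp1 reached 0.341 and its log2 fold change was as small as -0.15. Those of Myc and Mdm2 reached no higher adjusted p than 0.113 and 0.155. The ribosomal proteins Fau (-0.08, adjusted p = 0.349) and Rack1 (-0.03, adjusted p = 0.747), whose symbols fall outside the naming rule, did not pass by edgeR, DESeq2 or limma, and neither had an unadjusted p under 0.05.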

How the data were processed

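The libraries were made by the authors from 10 ng of total RNA with an amplifying kit for low input that does not mark strand. The deposited counts are whole reads per Ensembl gene, made by the authors with STAR and featureCounts on GRCm38. The submitters' processing notes give STAR 2.7.9a and featureCounts 2.0.3, and the methods of the study give older releases. The deposited CPM and FPKM values were made by the authors from these counts and were read only to check their unit. The coefficient of variation between cultures was 10% at the common dispersion over all genes tested. The median within-group SD on the log2 scale was 0.0570 for the ribosomal protein genes, beside 0.111 for all genes tested. For genes with many counts this spread limits the precision more than counting does. For genes with few counts, such as Nr1d1 and Rpl39l, counting limits it too.

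Symbols and biotypes came from GENCODE release M21 (GRCm38) by gene identifier, which matched 55227 of 55487 genes. After removal of 356 genes with an rRNA biotype, those exceeding 1 CPM in 4 libraries or more entered the quasi-likelihood test of edgeR 4.0.16 (TMM, no covariates, Benjamini-Hochberg over all genes tested, threshold 0.05) in R 4.3.3, where the study used limma. Limma 3.58.1 and DESeq2 1.42.0 were alternatives, as were other scalings and filters, a block for the replicate number, correction for GC content and length in each library (splines with 5 degrees of freedom), copies summed in, and leaving out each library. SEs are the log2 fold change over the square root of F. The steps were tested on simulated data. Copies were searched with blastn 2.17.0 and assigned to the best-scoring gene. Promoters came from RefSeq (GRCm38.p6). The genes named are those that passed, the 5 highest and 5 lowest log2 fold changes, the 5 most abundant per length in each subunit, the stalk proteins and Rpsa, the paralogs, and the called genes of the other lists. Rpl39, Rps10, Rpl24, Rpl13a, Rpl13 beside its overlapping gene, the pairs of near-identical genes and Fau and Rack1 are not covered by this rule and were added once their values were known. The genes and lists were chosen with earlier results of these data known.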

Additional observations from a re-analysis of the deposited data

How the results depend on the processing

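The count of ribosomal protein genes that passed (3) was 6 without a filter on expression, where Rpl35, Rpl22l1 and Rps6 were added. Their median log2 fold change was then 0.073, while the median of all genes tested shifted to -0.198. The difference between the subunit medians was 0.028 with the trend with GC content and length removed (large subunit higher), and 0.029 with that removal and the replicate block. The cause was not tested. Leaving out each library in turn gave 1 to 4 calls, with the lowest count without Cre+ replicate 3. The median log2 fold change then ran from -0.035 to 0.03, and the difference in summed share (Cre+ minus Cre-) from -0.0475 to 0.0609 percentage points. Under the other scalings (DESeq2 size factors, library totals, TMM factors without the ribosomal protein genes) and tests, 3 genes passed each time and the median lay between -0.008 and 0.001. Rpl39l is left out by a filter above 5 CPM, where Rpl4 and Rps2 passed.

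The labels do not say whether the replicate numbers pair the cultures. Same-numbered libraries correlated at 0.0144, -0.0205 and -0.0445 in their deviations from the group means. With 3 libraries a group, such correlations cannot decide whether same-numbered cultures were paired. With the replicate block, 2 genes passed, Rpl4 being at an adjusted p of 0.0520, and with the block and the trend removed 3 passed, Rps2 being at 0.0550. In the other lists the block also lost Eif2a, Eif3a, Myc, Mdm2, Eif4ebp1, Rps4l, Flt1 and Itgam. Of 715 alternative values of 38 named genes, those of the other lists included, 632 kept their side of the threshold, 76 lost it, 7 gained it and 0 called values reversed. With 3 cultures a group, log2 differences near the median SE of 0.0469 could not be resolved for single genes, and how reads shared with copies or read-through genes were counted is not known here.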
